A study of Mus musculus with 14 samples.

Results

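The genes described are the liver metallothioneins Mt1 and Mt2, their zinc-sensing regulator Mtf1, and the metal transporters Slc30a1, Slc30a10 and Slc39a14. They were chosen by symbol in a table of estimated counts per gene, and 6 of 57180 genes in the table are members. All 6 passed the filter on low counts, which kept 16201 genes. The study sequenced whole-liver RNA of Pkd1 littermate mice on normal chow, 14 libraries in all. There were 4 libraries labelled Homo, 4 labelled Het and 6 labelled WT, and every label also names Cre. Pkd1 encodes polycystin 1, and its human counterpart is the gene most often mutated in autosomal dominant polycystic kidney disease. Which allele of Pkd1 was used, what drives Cre, and each animal's sex, age, litter and collection time are absent from the labels, so it is unknown which liver cells carried the change. The comparisons ask how these transcripts differed between the genotypes and which livers stood apart.

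Metallothioneins are small, cysteine-rich proteins that hold zinc and copper in the cytosol. MTF1 is a zinc finger transcription factor that senses free zinc, binds metal response elements in promoters and switches on Mt1, Mt2 and the zinc exporter gene Slc30a1. In liver, metallothionein genes are also known to respond to glucocorticoids and to inflammatory cytokines such as interleukin 6. The plasma membrane importer encoded by Slc39a14 (ZIP14) brings zinc, manganese and iron into hepatocytes and is induced by interleukin 6, while Slc30a10 encodes a manganese exporter.

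Mt2 and Mt1 lie next to each other on chromosome 8, on the same strand, with annotated starts 6471 bases apart in GRCm38.p6, the build of the RefSeq promoter table. That build differs from the GRCm39 of the counts, so it was used for sequences, chromosomes, start positions and transcript lengths only. Slc30a1 and Slc30a10 are on chromosome 1, Mtf1 on chromosome 4 and Slc39a14 on chromosome 14. The promoter windows of Mt1, Mt2 and Slc30a1 are shown because they carry the short metal response element core through which MTF1 is known to act. Each runs from 250 bases before to 50 after the annotated start, 5′ to 3′ on the plus strand. Capitals mark every match to TGCACNC or TGCGCNC on either strand, so a match on the minus strand reads as its reverse complement.
Mt1, chr8:94178839-94179138: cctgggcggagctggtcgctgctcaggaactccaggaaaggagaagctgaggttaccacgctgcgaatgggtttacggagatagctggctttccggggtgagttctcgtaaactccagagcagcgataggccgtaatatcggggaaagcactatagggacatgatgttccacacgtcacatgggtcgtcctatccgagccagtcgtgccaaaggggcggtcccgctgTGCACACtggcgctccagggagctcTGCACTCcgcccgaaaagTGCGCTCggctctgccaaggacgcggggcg
Mt2, chr8:94172368-94172667: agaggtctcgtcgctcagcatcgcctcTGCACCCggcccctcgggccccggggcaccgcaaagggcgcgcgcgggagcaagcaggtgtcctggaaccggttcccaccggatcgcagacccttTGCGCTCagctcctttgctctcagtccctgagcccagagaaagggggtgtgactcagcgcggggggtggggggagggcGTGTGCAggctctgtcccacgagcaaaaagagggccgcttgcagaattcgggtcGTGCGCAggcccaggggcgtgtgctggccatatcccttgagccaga
Slc30a1, chr1:191906531-191906830: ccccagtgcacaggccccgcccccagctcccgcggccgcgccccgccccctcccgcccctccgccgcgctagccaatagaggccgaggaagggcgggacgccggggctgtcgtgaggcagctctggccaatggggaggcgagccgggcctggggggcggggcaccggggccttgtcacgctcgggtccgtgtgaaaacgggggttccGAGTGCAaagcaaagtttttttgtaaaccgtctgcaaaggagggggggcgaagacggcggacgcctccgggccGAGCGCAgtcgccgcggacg

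The window of Mt1 held 3 matches, all on the plus strand, and that of Mt2 held 4, of which 2 were on the plus strand. The Slc30a1 window held 2, both on the minus strand. Slc30a10 had 3 matches, of which a plus-strand and a minus-strand match overlap, and Mtf1 had 0. Of 32817 promoter windows of the same length, 25.7% held at least 1 match, 7.12% at least 2, 1.97% at least 3 and 0.518% at least 4. These matches describe letters in the windows and say nothing about binding. Slc39a14 had no entry in the promoter table.

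Total counts spanned 18573739 to 28431875 for Homo libraries, 22833853 to 26245475 for Het and 25238140 to 40925973 for WT. The targeted gene Pkd1 had 23.1 to 26.4 CPM (counts scaled to TMM-adjusted library size, as edgeR computes them) in the Homo livers, 28.1 to 36.7 CPM in the Het livers and 31.4 to 37.7 CPM in the WT livers. Hepatocyte markers were abundant in all libraries, at a summed level of 70390 to 97000 CPM over 12 genes. Mitochondrial transcripts took 9.83% to 12.5% of counts. For the metallothioneins, Homo 4, Het 2 and WT 5 (libraries are named by genotype label and replicate number) had the highest levels of their genotypes. Each comparison of Mt1 and Mt2 is therefore also given without some of these libraries.

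The metallothionein transcripts differed widely between livers of the same genotype. Mt1 stood at 7.49, 8.79, 7.97 and 65.5 CPM in Homo 1 to 4 and at 22.7, 298, 76.7 and 47.4 CPM in Het 1 to 4, against a lowest, median and highest of 7.51, 17.2 and 134 CPM in WT. The ranges of the 3 genotypes overlapped: Homo 1, Homo 2 and Homo 3 sat at the floor shared with WT 1, WT 3 and WT 4, while Het 2 and WT 5 were the highest of all. Mt1 differed 39.8-fold between Het 2 and Homo 1, the highest and the lowest library, which are of different genotypes. Within a genotype, the highest library exceeded the lowest 8.75-fold in Homo, 13.2-fold in Het and 17.8-fold in WT.

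Mt2 followed the same libraries over a wider range. Its level was 1.22, 0.776, 1.10 and 14.0 CPM in Homo 1 to 4 and 2.59, 166, 22.1 and 14.3 CPM in Het 1 to 4, against a lowest, median and highest of 0.537, 3.44 and 87.8 CPM in WT. Het 2 and WT 5 were again the highest, followed by Het 3, and Homo 1, Homo 2, Homo 3, WT 1, WT 3 and WT 4 lay near 1 CPM or lower. Between Het 2 and WT 4 the level differed 310-fold, although WT 4 rests on 14 counts (exact Poisson 95% interval 0.293 to 0.900 CPM). Mt3 and Mt4, the brain and epithelial metallothionein genes, had 0 counts in every library. With the limit for a count of 0 taken as 3 counts, at most 0.165 CPM is allowed in any library, for counting error only.

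**Figure D1:**
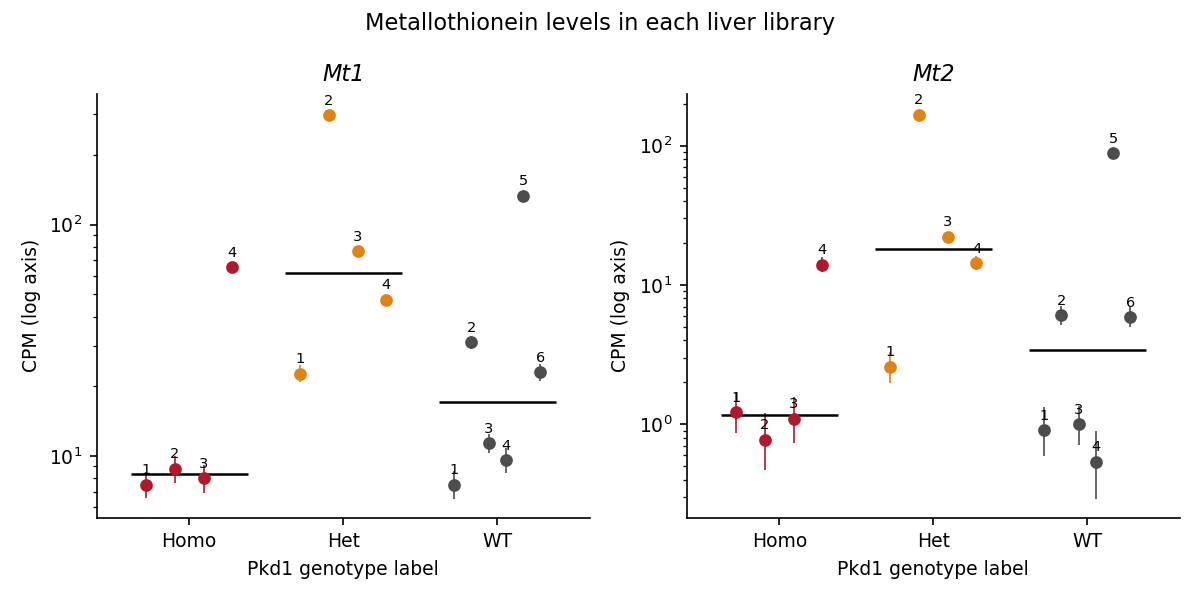
CPM of Mt1 (left) and Mt2 (right) in each library on a log axis, by genotype label. Numbers are the replicate numbers of the labels, vertical lines exact Poisson 95% intervals of the count, and horizontal bars group medians. Het 2 at 298 CPM, WT 5 at 134 CPM and Homo 4 at 65.5 CPM of Mt1 lie above most libraries of their own genotype, and the genotypes overlap.

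The spread of both genes was among the widest in the liver. The within-genotype SD was 1.53 on the log2 CPM scale for Mt1 and 2.41 for Mt2, against a median of 0.197 over 13093 genes of at least 1 mean CPM. For Mt1 99.1% of those genes had a smaller SD and for Mt2 99.6%. The same figure was 75.3% for Slc39a14 (SD 0.318), 59.4% for Slc30a10 (0.231), 19.2% for Mtf1 (0.117) and 14.5% for Slc30a1 (0.107). The transcripts of the regulator and the zinc exporter varied less than those of most genes, between the same livers in which the metallothionein transcripts varied widely. The activity of MTF1 was not measured.

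The balance of the 2 metallothionein transcripts also differed between libraries, with the largest share of Mt2 in the 2 libraries of highest level. Mt2 supplied 35.8% of Mt1 and Mt2 counts in Het 2 (exact Clopper-Pearson 95% interval 34.9 to 36.7) and 39.6% in WT 5 (38.5 to 40.8). In the other 12 libraries it supplied between 5.32% in WT 4 and 23.2% in Het 4. Mt1 therefore exceeded Mt2 1.79-fold in Het 2 and 1.52-fold in WT 5, but 17.8-fold in WT 4 and 11.4-fold in WT 3. The principal transcripts of Mt1 and Mt2 share no identical run longer than 20 bases, so reads of one are separable from reads of the other over most of their length. The intervals cover counting error only.

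Per kilobase of the principal transcript (549 bases for Mt1, 511 for Mt2), the median level over the 14 libraries was 41.6 CPM per kb for Mt1 and 8.29 CPM per kb for Mt2. On the same scale Slc39a14 was at 38.7, Slc30a1 at 8.35, Slc30a10 at 4.53 and Mtf1 at 3.20 CPM per kb. The metallothioneins changed place in this order with the library. In Het 2 Mt1 reached 543 and Mt2 326 CPM per kb against 52.0 for Slc39a14, while the lowest libraries had 13.7 CPM per kb of Mt1 and 1.05 of Mt2 against at least 26.3 of Slc39a14. At the low end of the order, the ranges of Slc30a10 (2.85 to 6.17 CPM per kb) and Mtf1 (2.76 to 3.6 CPM per kb) overlapped, while Slc30a1 (7.31 to 9.90 CPM per kb) lay above both in every library.

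In Homo against WT, 0 of the 6 members passed the edgeR quasi-likelihood test at an adjusted p under 0.05, where 0.222% of all genes did (0.16% higher and 0.0617% lower in Homo). At an unadjusted p under 0.05 there were also 0 members, beside 4.73% of all genes, and DESeq2 called 0. Mt1 was at 22.4 ± 28.7 CPM in Homo and 36.0 ± 48.7 CPM in WT (SD, n = 4 and 6), a fold of 0.615 (95% interval 0.153 to 2.47, log2 -0.70 with an SE of 0.940, edgeR adjusted p = 0.998 and exact two-sided permutation p = 0.748). Mt2 was at 4.27 ± 6.49 CPM in Homo and 17.0 ± 34.7 CPM in WT, a fold of 0.232 (interval 0.0249 to 2.17, edgeR adjusted p = 0.998 and exact permutation p = 0.814). These values rest on 2 livers. Without WT 5 the log2 fold change turned to 0.43 for Mt1 and 0.50 for Mt2, and without Homo 4 it was -2.16 and -4.03 (edgeR adjusted p = 0.783 and 0.785). In bulk liver, fewer cells of a type and less RNA per cell cannot be told apart.

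In Het against WT, 0 members passed the edgeR test, where 0.0556% of all genes did, all of them higher in Het, and DESeq2 called 0. At an unadjusted p under 0.05 there was 1 member, Slc30a10, beside 4.67% of all genes. Mt1 averaged 111 ± 127 CPM in Het and 36.0 ± 48.7 CPM in WT, a fold of 3.09 (95% interval 0.822 to 11.6, log2 1.63 with an SE of 0.894, edgeR adjusted p = 0.998 and exact permutation p = 0.21). For Mt2 the means were 51.4 ± 77.1 CPM in Het and 17.0 ± 34.7 CPM in WT, a fold of 3.00 (interval 0.456 to 19.7, edgeR adjusted p = 0.998 and exact permutation p = 0.438). The medians were 62.0 CPM of Mt1 in Het and 17.2 CPM in WT, and 18.2 CPM of Mt2 in Het and 3.44 CPM in WT. Single libraries again set the size. Without Het 2 the log2 fold change of Mt1 was 0.44 and that of Mt2 -0.39, and without WT 5 they were 2.76 and 4.18 (edgeR adjusted p = 0.854 and 0.702). With both libraries left out they were 1.57 and 2.20 (edgeR adjusted p = 1.000 for both, unadjusted 0.0443 and 0.0455).

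In Homo against Het, 0 members passed the edgeR test, where 0.0309% of all genes did (0.0123% higher and 0.0185% lower in Homo), and DESeq2 called 0. Mt1, Mt2 and Slc30a10 had an unadjusted p under 0.05, as did 5.10% of all genes. The fold of Mt1 was 0.199 (95% interval 0.0423 to 0.938, edgeR adjusted p = 0.958 and exact permutation p = 0.171) and that of Mt2 0.0775 (interval 0.00687 to 0.875, edgeR adjusted p = 0.958 and exact permutation p = 0.0571). The smallest exact p that 4 against 4 libraries allow is 0.0286. Homo 4 lay inside the range of Het for both genes. Without Het 2 the log2 fold changes were -1.15 for Mt1 and -1.69 for Mt2 in place of -2.33 and -3.69, and without Homo 4 they were -3.78 and -5.62. Comparisons that share a genotype share its libraries and are not independent of each other.

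**Figure D2:**
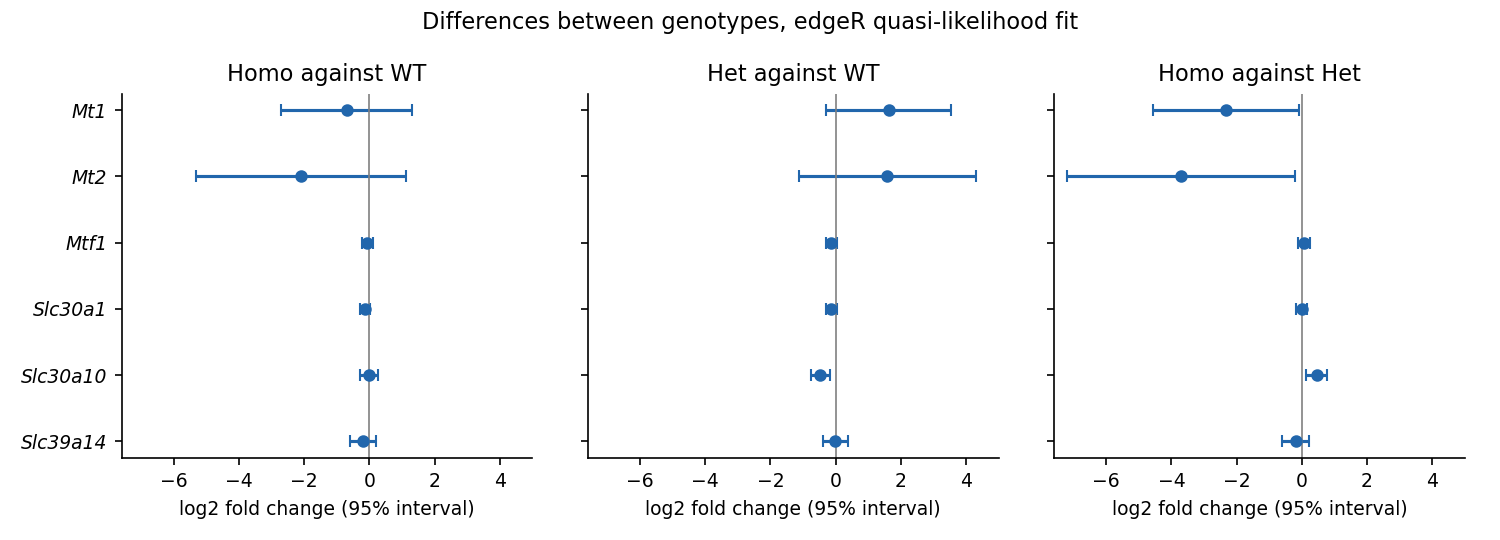
Log2 fold change of each member (points) with its 95% interval (bars) in the edgeR fit, for the 3 pairs of genotypes. The intervals of Mt1 and Mt2 span several log2 units, while those of Mtf1, Slc30a1, Slc30a10 and Slc39a14 are narrow and close to 0, with Slc30a10 at -0.47 in Het against WT and 0.45 in Homo against Het.

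Mtf1, the zinc sensor, was nearly flat. It stood at 23.9, 24.1, 27.4 and 21.9 CPM in Homo 1 to 4 and at 22.3, 25.9, 21.0 and 24.0 CPM in Het 1 to 4, against 22.8, 25.8 and 27.5 CPM as the lowest, median and highest in WT. The groups overlapped and no library stood apart. The fold was 0.952 in Homo over WT (95% interval 0.849 to 1.07, edgeR adjusted p = 0.998) and 0.911 in Het over WT (interval 0.812 to 1.02, edgeR adjusted p = 0.998). In Het 2 and WT 5, where metallothionein levels were highest, Mtf1 ranked 5 (Het 2) and 7 (WT 5) of the 14 libraries.

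Slc30a1, the zinc exporter that MTF1 is known to induce, varied little. Its level was 40.3, 40.6, 44.4 and 43.2 CPM in Homo 1 to 4 and 38.3, 46.4, 42.3 and 41.5 CPM in Het 1 to 4, against a lowest, median and highest of 40.1, 45.6 and 51.9 CPM in WT. WT 5 was the highest library of all and Het 2 the highest of Het, but both were within 1.36-fold of the lowest. Homo averaged 42.1 ± 1.99 CPM, Het 42.1 ± 3.35 CPM and WT 46.0 ± 3.84 CPM (SD). The fold against WT was 0.917 in Homo (95% interval 0.823 to 1.02, exact permutation p = 0.105) and 0.917 in Het (interval 0.823 to 1.02, exact permutation p = 0.143), with edgeR adjusted p = 0.998 for both.

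Slc30a10, the manganese exporter, was the one member with an unadjusted p under 0.05 in Het against WT, and was lower in Het. Its level was 29.9, 29.3, 29.0 and 25.4 CPM in Homo 1 to 4 and 20.0, 19.7, 16.6 and 26.7 CPM in Het 1 to 4, against 23.2, 27.9 and 36.0 CPM as the lowest, median and highest in WT. Het 1, Het 2 and Het 3 were below every Homo and WT library, and Het 4 was inside both ranges. The Het over WT fold was 0.723 (95% interval 0.590 to 0.887, log2 -0.47, SE 0.138, unadjusted p = 0.00415, exact permutation p = 0.0429), but the edgeR adjusted p over all genes was 0.765. Homo over Het gave a fold of 1.37 (interval 1.10 to 1.71, unadjusted p = 0.00865, edgeR adjusted p = 0.916 and exact permutation p = 0.0571). Homo and WT were close, at 28.4 ± 2.04 and 28.7 ± 5.03 CPM (fold 0.991, interval 0.811 to 1.21). The gene therefore failed the correction in each comparison. For Het against WT the log2 fold change ran from -0.61 to -0.37 when 1 library was left out.

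Slc39a14 (ZIP14), which imports zinc and manganese, was the most abundant transporter and shared its highest livers with the metallothioneins. It stood at 183, 156, 190 and 178 CPM in Homo 1 to 4 and at 148, 256, 191 and 210 CPM in Het 1 to 4, against a lowest, median and highest of 129, 208 and 287 CPM in WT. Het 2 and WT 5 were the 2 highest of all 14 libraries, and the genotypes overlapped. The fold was 0.872 in Homo over WT (95% interval 0.667 to 1.14, edgeR adjusted p = 0.998 and exact permutation p = 0.41) and 0.992 in Het over WT (interval 0.760 to 1.30, edgeR adjusted p = 0.998 and exact permutation p = 0.976). Homo libraries were the tightest group, at 177 ± 15.1 CPM, against 201 ± 44.8 CPM in Het and 203 ± 52.7 CPM in WT.

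**Figure D3:**
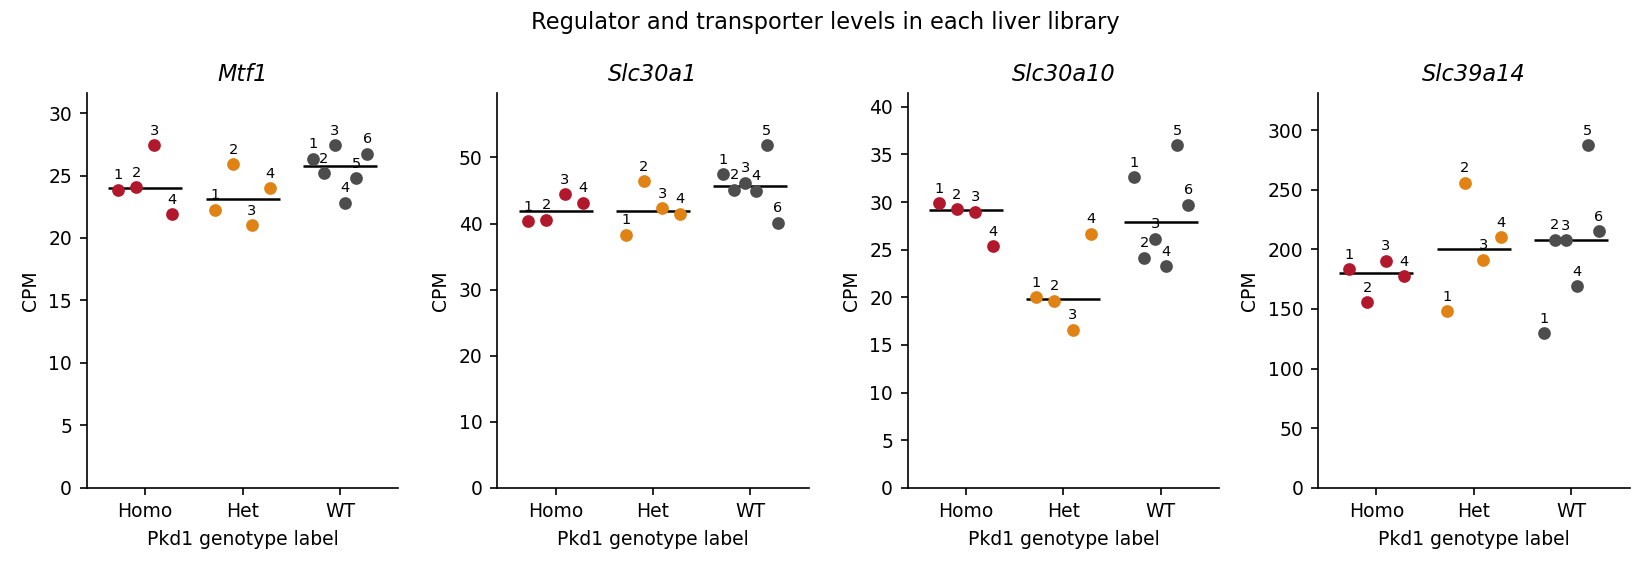
CPM of Mtf1, Slc30a1, Slc30a10 and Slc39a14 in each library on linear axes from 0, by genotype label, with replicate numbers and group medians (bars). For Slc30a10, Het 1, Het 2 and Het 3 lie below all Homo and WT libraries. For Slc39a14, Het 2 at 256 CPM and WT 5 at 287 CPM are the highest.

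The wider zinc transporter families had small median differences between genotypes. Of the 10 Slc30 (ZnT) genes, which export zinc from the cytosol or load it into vesicles, 7 were tested, and of the 14 Slc39 (ZIP) genes, which import it, 12 were tested. In each comparison 0 of these passed the edgeR test in either direction. The median log2 fold change in Homo against WT was -0.01 over the Slc30 genes and -0.06 over the Slc39 genes, beside 0.00 over all genes. In Het against WT they were -0.07 and -0.02. Slc30a7, a transporter of the early secretory pathway, joined Slc30a10 at an unadjusted p under 0.05 (unadjusted p = 0.0440, edgeR adjusted p = 0.998). That was 2 of 7 Slc30 genes and 0 of 12 Slc39 genes, beside 4.67% of all genes. The level of Slc30a7 was 32.5 ± 1.52 CPM in Homo, 28.1 ± 2.88 CPM in Het and 31.5 ± 2.43 CPM in WT. In Homo against Het, 2 of 7 Slc30 genes and 2 of 12 Slc39 genes were under 0.05 before adjustment, beside 5.10% of all genes. The Slc30 genes were Slc30a10 and again Slc30a7 (unadjusted p = 0.0235, edgeR adjusted p = 0.930). The Slc39 genes were Slc39a1 (40.4 ± 3.97 and 46.6 ± 3.94 CPM, unadjusted p = 0.0196) and Slc39a7, a zinc channel of the endoplasmic reticulum (55.5 ± 6.90 and 47.4 ± 3.00 CPM, unadjusted p = 0.0166), with edgeR adjusted p = 0.916 for both.

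Of the other zinc importers, Slc39a4, known for zinc uptake in the intestine, was at 60.1 ± 16.3 CPM in Homo, 59.4 ± 3.35 CPM in Het and 57.1 ± 12.2 CPM in WT. Slc39a8, a close relative of Slc39a14, was at 23.6 ± 2.70, 22.9 ± 1.45 and 22.6 ± 1.87 CPM in Homo, Het and WT. Slc39a10, which MTF1 is known to repress, was at 4.88 ± 0.333 CPM in Homo, 5.32 ± 0.712 CPM in Het and 5.51 ± 0.835 CPM in WT. Slc30a5, a zinc transporter of the Golgi, reached 43.4 CPM in Het 2 and 43.0 CPM in WT 5, the highest of their genotypes, with means of 30.7 ± 1.96 CPM in Homo, 33.0 ± 7.47 CPM in Het and 34.6 ± 5.41 CPM in WT.

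Of the copper handling genes, 12 were tested and 0 passed in any comparison. Cox17, a copper chaperone of cytochrome oxidase, had the smallest p in Homo against WT (20.6 ± 1.53 CPM in Homo and 23.5 ± 1.68 CPM in WT, unadjusted p = 0.0425, edgeR adjusted p = 0.998). Atp7b, which encodes the pump that moves copper into bile, was at 36.3 ± 3.14 CPM in Homo and 31.2 ± 4.73 CPM in WT. The copper uptake gene Slc31a1 was at 121 ± 5.27 CPM in Homo and 129.6 ± 9.87 CPM in WT. Among 10 further genes of manganese and iron transport, 0 passed, and the iron hormone gene Hamp was at 286 ± 124 CPM in Homo and 435 ± 107 CPM in WT (unadjusted p = 0.0514). The iron exporter gene Slc40a1 was at 78.1 ± 7.08 CPM in Homo and 72.4 ± 5.55 CPM in WT, and the ferritin gene Fth1 at 498 ± 22.0 CPM in Homo and 534 ± 26.9 CPM in WT.

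Across the 14 libraries the other members followed the metallothioneins to different degrees. Mt1 and Mt2 moved together (Pearson r = 0.981, Spearman rho = 0.877 on log2 CPM, and r = 0.964 without Het 2 and WT 5, the libraries farthest from the median). Slc39a14 followed their mean less closely (r = 0.720, rho = 0.723, and r = 0.438 without the same libraries, so the relation rests in large part on them). For Slc30a1 r was 0.309 and turned to -0.25 without those libraries. For Mtf1 r was -0.18, and -0.50 without those libraries, and for Slc30a10 it was -0.30, and -0.54 without them. With genotype means removed, r was 0.778 for Slc39a14, 0.570 for Slc30a1, 0.124 for Slc30a10 and -0.01 for Mtf1. These values describe 14 libraries whose totals differ, and no p is attached.

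Genes with model or clone names (such as Gm, Rik or no symbol) and pseudogenes were left out of this ranking and the next ones. Of the rest of the 13093 genes, those most like the mean of Mt1 and Mt2 were found after subtracting genotype means, over 14 libraries. They were Susd6 (r = 0.938), the death receptor gene Fas (0.908), the pro-apoptotic factor gene Pawr (0.899), Osmr (0.897), which encodes the receptor of the cytokine oncostatin M, Clpx (0.878), which encodes a mitochondrial chaperone, Tacc2 (0.877), the transcriptional repressor gene Nfil3 (0.874) and the splicing factor gene Srrm4 (0.872). Without WT 5 and Het 2 their r ran from 0.757 for Osmr to 0.956 for Susd6. Susd6 stood at 60.5 CPM in Homo 4, 64.4 CPM in Het 2 and 56.8 CPM in WT 5, against 33.0 CPM in the lowest library. Osmr stood at 9.42 CPM in Het 2 and 9.19 CPM in WT 5, against 3.61 to 6.13 CPM in the other 12 libraries. None of the 8 passed the edgeR test in any comparison.

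Osmr was also among the 3 genes most like Slc39a14 (r = 0.928), beside Stk19 (0.935) and Ranbp2 (0.927). For Slc30a1 they were Timd2 (0.877), the kinase gene Pak4 (0.875) and Tbc1d24 (0.859). For Slc30a10 they were Ociad1 (0.879), Gopc (0.872) and Trappc13 (0.860), and for Mtf1 Wdfy4 (0.891), Snrpe (0.864) and Dis3l2 (0.856). With 13093 genes and 14 libraries, high values of r are to be found for any gene.

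Het 2 and WT 5 were each the highest library of their genotype for 4 of the 6 members, namely Mt1, Mt2, Slc30a1 and Slc39a14, where 7.12% of all genes tested showed that pattern. These libraries were singled out for their Mt1 and Mt2 levels, so 2 of the 4 were fixed by that choice and nothing is read from the count. Of the 20 acute phase genes, hepatocyte genes that rise in inflammation, 16 showed it, or 80.0%. The list was chosen with earlier results of these livers known, so its count is a description. Saa2, a serum amyloid A gene, stood at 2633 CPM in Het 2 and 1083 CPM in WT 5, against a median of 133 CPM and a highest value of 1134 CPM (Homo 3) in the other 12 libraries. Lcn2, which encodes the iron-sequestering lipocalin 2, was at 143 CPM in Het 2 and 75.6 CPM in WT 5, against at most 32.2 CPM elsewhere. Steap4, a metalloreductase gene, was at 409 CPM in Het 2 and 503 CPM in WT 5, against at most 213 CPM elsewhere. In the genotype comparisons 0 acute phase genes passed the edgeR test. In Homo against WT 13 of 20 were above 0 (median log2 fold change 0.08, with 50.6% of all genes above 0). In Het against WT 19 of 20 were above 0 (median 0.34, with 50% of all genes above 0). In Homo against Het 1 of 20 was above 0 (median -0.41, with 50.5% of all genes above 0). The Het group holds Het 2 and the WT group holds WT 5. The neutrophil marker list summed to 5.37 CPM in Het 2 and 4.69 CPM in WT 5 and to at most 1.54 CPM elsewhere. Its 7 genes were all detected, but just 2 were tested. The part of these markers in the metallothionein levels was not tested.

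The order of the libraries in Saa1 differed from their order in Mt1. Homo 3 had 1044 CPM of Saa1, close to the 1027 CPM of WT 5, but 7.97 CPM of Mt1 against 134 CPM in WT 5. Other acute phase genes went either way between these livers. Saa2 was at 1134 CPM in Homo 3 and 1083 CPM in WT 5, but Saa3 was at 14.1 and 60.8 CPM and Lcn2 at 32.2 and 75.6 CPM. The acute phase list summed to 21280 CPM in Homo 3 and 23610 CPM in WT 5. Homo 4 had 65.5 CPM of Mt1 with 43.0 CPM of Saa1, the second lowest Saa1 value of all, and Het 3 had 76.7 CPM of Mt1 with 139 CPM of Saa1. Over the 14 libraries Mt1 and Saa1 gave r = 0.317 and rho = 0.147 on log2 CPM, and r = -0.28 without Het 2 and WT 5. For Lcn2 the values were r = 0.649 and rho = 0.433, and r = 0.12 without those libraries. The part of the acute phase genes in the metallothionein levels was not tested.

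Homo 4 and Het 3 had the highest summed levels of glucocorticoid-responsive genes. These were 6642 CPM in Homo 4 and 6935 CPM in Het 3 over 14 genes, against 2231 to 4731 CPM in the other 12. Not every gene of the list had that order. The highest Het library had 40.45 CPM of Dusp1 and 144.6 CPM of G6pc. The highest WT library had 42.41 and 237.8 CPM, and the highest Homo library 71.97 and 259.7 CPM. For Sgk1 the highest values were 19.82 CPM in Homo, 18.12 CPM in Het and 16.99 CPM in WT. Tsc22d3, a glucocorticoid-induced leucine zipper gene, was at 214 CPM in Homo 4 and 163 CPM in Het 3, against 64.5 CPM in Het 2 and 62.3 CPM in WT 5. WT 4 came close to Het 3, at 156 CPM of Tsc22d3, but had 9.55 CPM of Mt1. Tat, which encodes tyrosine aminotransferase, was at 2475 CPM in Homo 4 and 2331 CPM in Het 3, against 320 to 1290 CPM in the other 12. Over the 14 libraries, r with Mt1 on log2 CPM was 0.271 for Tsc22d3 (rho = 0.376), 0.623 for Tat (rho = 0.679) and 0.597 for Fkbp5, a glucocorticoid receptor co-chaperone gene (rho = 0.705). Without Het 2 and WT 5, the livers of highest Mt1, the r values were 0.607 for Tsc22d3, 0.778 for Tat and 0.840 for Fkbp5. These genes were singled out after their values were seen, and their part in the metallothionein levels was not tested. No r is given for the other glucocorticoid-responsive genes. The list passed in 0 genes in every genotype comparison, and its median log2 fold change was -0.01 in Homo against WT and 0.11 in Het against WT.

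**Figure D4:**
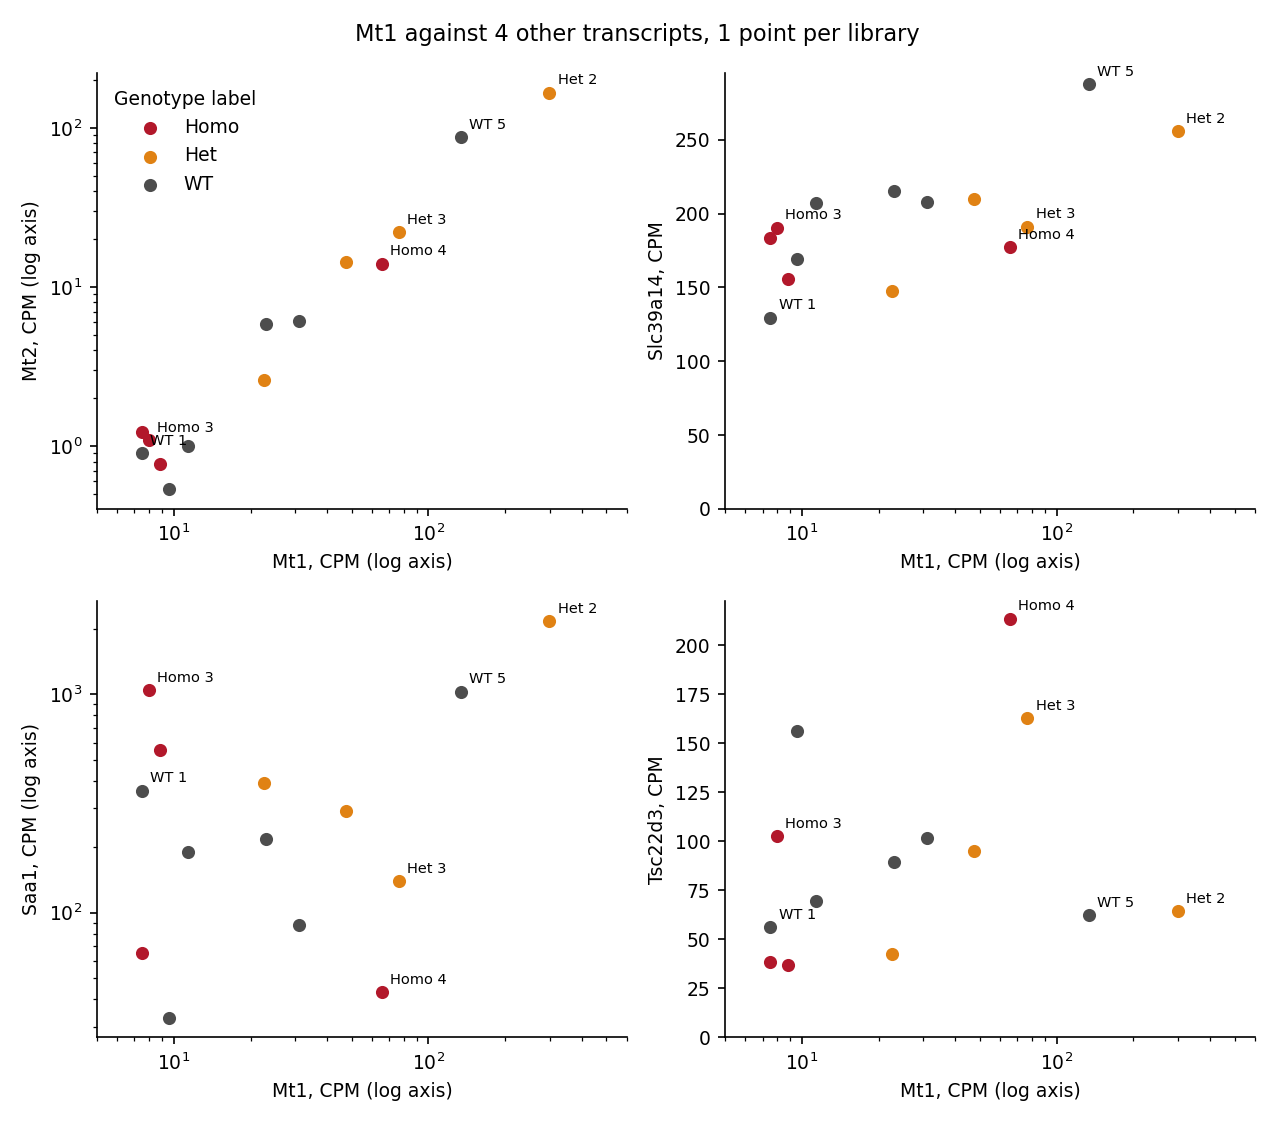
Mt1 (log axis, CPM) against Mt2 and Saa1 (log axes) and Slc39a14 and Tsc22d3 (linear axes), 1 point per library, coloured by genotype label. Mt2 is higher where Mt1 is higher (r = 0.981 on log2 CPM). Het 2 and WT 5 are high in Slc39a14 and Saa1, Homo 3 is high in Saa1 with low Mt1, and Homo 4 and Het 3 are high in Tsc22d3, as is WT 4 (156 CPM) with low Mt1 (9.55 CPM).

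Genes of the oxidative stress response were highest in both Het 2 and WT 5 within their genotypes in 1 of 10, hypoxia genes in 1 of 11, immediate early genes in 3 of 11, copper genes in 1 of 12, manganese and iron genes in 1 of 10 and hepatocyte markers in 2 of 12. Markers of cholangiocytes (6 tested genes), Kupffer cells (10), sinusoidal endothelium (8), stellate cells (9) and lymphocytes (4) showed it in 0 genes each. The summed Kupffer cell markers were 230.6 CPM in Het 2 and 219.5 CPM in WT 5, within the 213 to 275 CPM of the other libraries. By genotype that sum was 255 to 275 CPM in Homo, 213 to 261 CPM in Het and 218 to 261 CPM in WT, with 0 of 10 genes passing the edgeR test. In Homo against WT 4 of the 10 genes were at an unadjusted p under 0.05 (4.73% of all genes) and 9 of the 10 were above 0 (50.6% of all genes). Het 2 and WT 5 were the lowest libraries of their genotypes for 3 summed lists. These were the endothelial markers (301.8 CPM in Het 2 and 289 CPM in WT 5), the stellate cell markers (367 CPM in Het 2 and 369 CPM in WT 5) and the hepatocyte markers (73350 CPM in Het 2 and 74870 CPM in WT 5), and the part of these markers in the metallothionein levels was not tested. Lymphocyte markers summed to 19.4 to 29.2 CPM in Homo, 19.3 to 22.9 CPM in Het and 8.69 to 19.1 CPM in WT, also with 0 genes passing. Erythroid markers were highest in both libraries in 3 of 5 genes, with sums of 75.1 CPM in Het 2 and 98.4 CPM in WT 5 against 60.4 to 92.8 CPM elsewhere. The sum of Het 2 was the lowest of the Het libraries, while that of WT 5 was the highest of the WT libraries. The part of the erythroid markers in the metallothionein levels was not tested either. Acinar pancreas markers summed to 15.5 CPM in Het 2 and 13.9 CPM in WT 5, and adipocyte markers to 1.87 CPM in Het 2 and 4.63 CPM in WT 5, within or below the range of the other libraries.

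**Figure D5:**
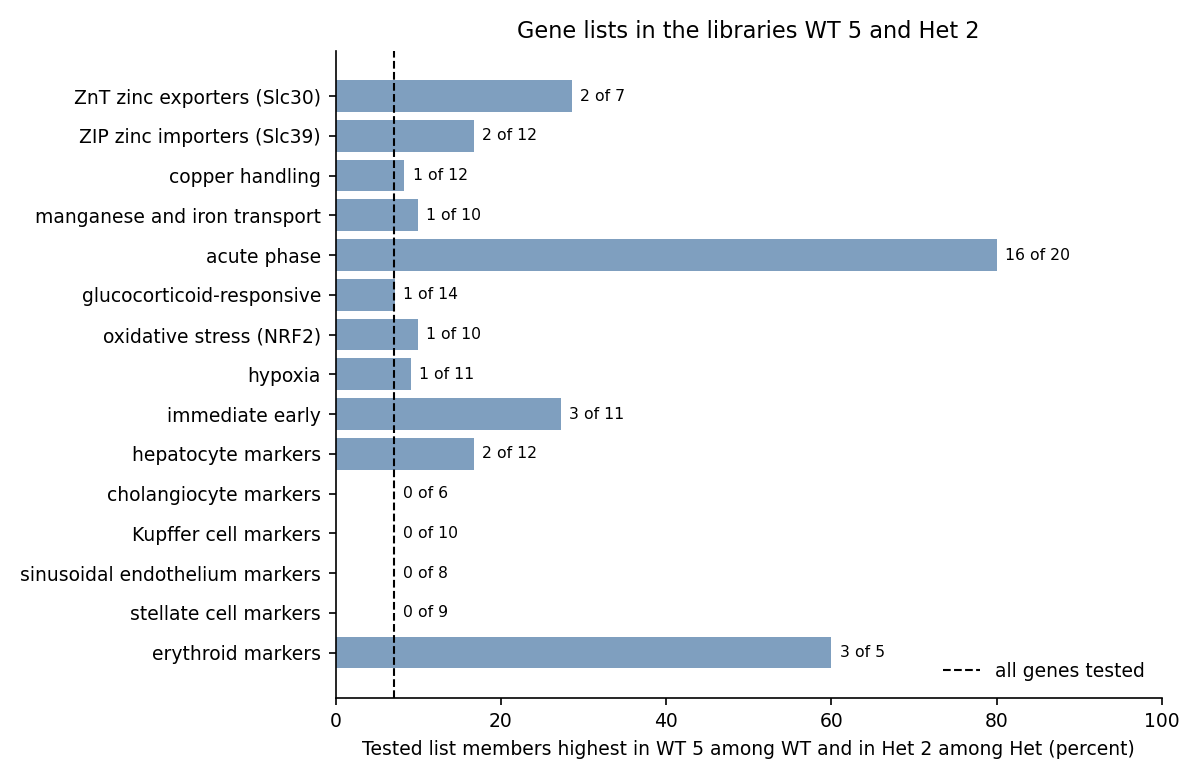
Percent of tested genes of each list (lists with at least 5 tested genes) that were highest in Het 2 among Het libraries and in WT 5 among WT libraries. The dashed line is the share over all genes tested, 7.12%. The acute phase list stands at 80.0% (16 of 20 genes), and those of cholangiocytes, Kupffer cells, sinusoidal endothelium and stellate cells at 0.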

How the data were processed

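Liver RNA of 14 mice was sequenced after Trizol and RNeasy extraction and NuGen Ovation library preparation, per the labels' protocols. The authors deposited 1 table of estimated counts per gene. STAR and Salmon and the build GRCm39 are named per the submitters' processing notes. Versions, annotation and strand setting were not given in the sources used here. Between 6.36% and 8.59% of values per library were not whole (tolerance 0.01), and all were rounded. Each column carries the name in 1 sample's description.

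Genes were kept with filterByExpr (count minimum 10, total minimum 15) in edgeR 4.0.16 (R 4.3.3), scaled with TMM and fitted over all 14 libraries with glmQLFit and glmQLFTest, with Benjamini-Hochberg adjustment over 16201 genes. Log2 CPM used a prior count of 2. DESeq2 1.42.0, other scalings, no filter, pairwise fits, a replicate block and leaving out each library were alternatives. The fit was tested on simulated data. Exact permutation tests compared mean CPM, two-sided and unadjusted, over 18 member comparisons. The smallest p for 4 against 6 libraries is 0.00476. P-values set a difference between groups against the spread between these libraries. Lengths and chromosomes came from GENCODE M21, promoters from RefSeq (GRCm38.p6), where 5 of 6 members matched.

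The 6 members and the 20 lists were chosen with earlier results of these data known. Every tested gene of the metallothionein, Slc30 and Slc39 lists could be named, and from other lists the 3 genes of at least 1 mean CPM whose p in Homo against WT was smallest. Other genes were named after their values were seen.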

Additional observations from a re-analysis of the deposited data

Results flagged for a closer look

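In 5 of 18 groups (6 genes in 3 genotypes) 1 library lay so far from the rest that its gap to the nearest other library exceeded Dixon's critical share of the range (0.829 for 4 libraries, 0.625 for 6). Chance flags about 1 group in 20 where values are normally distributed, which was not tested for these CPM values. All 5 were metallothionein values and all were high. Mt1 was at 65.5 CPM in Homo 4, against 7.49 to 8.79 CPM in the other Homo libraries, and at 134 CPM in WT 5, against 7.51 to 31.0 CPM in the other WT libraries. Mt2 was at 14.0 CPM in Homo 4 against 0.776 to 1.22 CPM, at 166 CPM in Het 2 against 2.59 to 22.1 CPM and at 87.8 CPM in WT 5 against 0.537 to 6.08 CPM. Since both genes are high in the same libraries, these are not 5 separate events. On log2 CPM, a scale added after seeing the data, 2 groups remained past the critical share, both for Homo 4 (0.927 for Mt1 and 0.85 for Mt2). On that scale the share was 0.487 for Mt2 in Het 2, 0.509 for Mt1 in WT 5 and 0.535 for Mt2 in WT 5, all under the critical value.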

How the results depend on the processing

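No member passed the edgeR or DESeq2 threshold under any of 22 alternatives in any comparison, and the smallest adjusted p was 0.262, for Slc30a10 in Het against WT with DESeq2. The count of all genes called in Homo against WT (36) was 62 with DESeq2, 20 with the replicate block and 22 for the same libraries without it, and ran from 23 (without Homo 1) to 40 with 1 library left out. In Het against WT (9) it was 23 without a filter and 32 with DESeq2, and 8 to 11 with 1 library left out. In Homo against Het (5) it was 17 with DESeq2, 2 in the pairwise fit, 2 with the replicate block, 2 without both WT 5 and Het 2, and 4 to 7 with 1 library left out. Same-numbered libraries did not pair: the correlation of their deviations ran from -0.09 to 0.13 over 12 pairs. Directions turned as follows, all for values that passed no test. In Homo against WT, Mt1 turned to 0.48 with the replicate block, 0.58 for those libraries without it and 0.43 without WT 5 and Het 2. Mt2 turned to 1.37, 0.92 and 0.53 under the same settings and Slc30a10 to 0.10, 0.095 and 0.063, and to 0.032 with the library total alone, and Slc39a14 turned to 0.019 with the block. With 1 library left out, Mt1 ran from -2.16 to 0.43, Mt2 from -4.03 to 0.50 and Slc30a10 from -0.067 to 0.063 (0.0625 without WT 5). In Het against WT, Slc39a14 turned to 0.17 with the block and 0.17 without it for those libraries, and ran from -0.15 to 0.11 with 1 library left out, Mt2 from -0.39 to 4.18. In Homo against Het, Slc30a1, at -0.00 in the fit of all libraries, was 0.0023 without a filter, 0.0017 in the pairwise fit, 0.0028 with the block, 0.0018 for those libraries without it, 0.064 with the library total and 0.049 without WT 5 and Het 2, and ran from -0.041 to 0.049 with 1 library left out. The cause was not tested. Exact permutation on log2 CPM, added after seeing the data, gave p = 0.0333 for Slc30a10 in Het against WT. Depth limits Mt2, which had 14 to 41 counts in the 6 lowest libraries.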
